A study of Mus musculus with 8 samples.

Results

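The genes described here mark the cells of the coronary vessels and of the inner lining of the heart in mouse hearts. They were taken from a list of 30 symbols, 20 for endothelial, endocardial and lymphatic cells and 10 for smooth muscle cells and pericytes, and each symbol was looked up by its NCBI Gene number. All 30 were present among the 18215 gene numbers of the tables, and all 30 passed the filter on low counts that left 12670 genes for testing. Polyadenylated RNA of hearts from mice that carry a Carns transgene (TG) and from wild-type mice (WT) was sequenced, with 4 libraries in each group. Carns1 encodes carnosine synthase, which makes histidyl dipeptides such as carnosine, and the study asked how the heart differs when the gene is overexpressed. The promoter that drives the transgene, the number of founder lines, and the strain, age and sex of the mice are not given in the sources used here. The labels also do not tell separate animals from repeat samples. Every p-value therefore weighs a difference only against the scatter of these samples, which may be technical scatter.

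Endothelial cells line every blood vessel and lymphatic vessel, form a barrier through their junctions, and set vessel tone by releasing nitric oxide. The endocardium is the endothelium of the heart chambers. Smooth muscle cells wrap the arteries and contract them through actin and myosin, while pericytes sit on capillaries and are recruited there by platelet-derived growth factor. Mural cell is the common name for both. Some members are not unique to these cells: Abcc9 and Prox1 are also expressed in cardiomyocytes, and Acta2 in activated fibroblasts.

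The libraries summed to 6261193 to 7897629 expected counts in TG and 6277698 to 7778422 in WT. Carns1 (Gene 107239) stood at 24288, 19071, 20797 and 19094 CPM (library counts scaled to a common size with TMM) in TG replicates 1 to 4 and at 67.6, 73.3, 44.5 and 65.1 CPM in WT replicates 1 to 4, as the labels say; values for other genes below follow the same replicate order. Library totals fell into 2 depth classes, deeper (TG replicates 1 and 3, WT replicates 1 and 2) and shallower (TG replicates 2 and 4, WT replicates 3 and 4), so each group has libraries in both. TG replicate 2 stood apart: its summed adipocyte markers reached 1727 CPM against 433 to 648 CPM in the other 7 libraries, and its summed atrial markers 893 CPM against 63.7 to 270 CPM. In the other 7 libraries Fabp4 alone, at 317 to 528 CPM, made up most of the adipocyte sum, and Adipoq stood at 0.273 to 3.12 CPM. Summed ventricular cardiomyocyte markers lay between 80501 and 94586 CPM in all 8 libraries, which fits the labelled tissue. The atrial share differed by library: the atrial myosin light chain Myl7 stood at 1.35 to 2.87 CPM in TG replicates 1 and 3 and WT replicates 2 and 3, and at 12.4 to 203 CPM in the other 4.

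The promoters of Acta2, Kcnj8 and Abcc9 are shown because the members they belong to carry the main observations below: Acta2 stood apart in a single library, and Kcnj8 and Abcc9 had the smallest unadjusted p-values of the list. The sequences are from RefSeq on build GRCm38.p6 and run 5′ to 3′ on the gene's strand, from 250 bases before to 50 bases after the start of the gene. The windows are chr19:34255324-34255623 (minus strand) for Acta2, chr6:142571565-142571864 (minus strand) for Kcnj8 and chr6:142702225-142702524 (minus strand) for Abcc9. Capitals mark matches to the CArG-like box, defined here as CC, then 6 bases of which at most 1 is not A or T, then GG.
Acta2: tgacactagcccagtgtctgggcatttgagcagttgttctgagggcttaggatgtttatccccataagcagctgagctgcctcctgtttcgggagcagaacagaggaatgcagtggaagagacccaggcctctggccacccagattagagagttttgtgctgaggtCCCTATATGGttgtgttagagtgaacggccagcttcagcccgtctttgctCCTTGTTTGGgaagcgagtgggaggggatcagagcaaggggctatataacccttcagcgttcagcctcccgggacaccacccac
Kcnj8: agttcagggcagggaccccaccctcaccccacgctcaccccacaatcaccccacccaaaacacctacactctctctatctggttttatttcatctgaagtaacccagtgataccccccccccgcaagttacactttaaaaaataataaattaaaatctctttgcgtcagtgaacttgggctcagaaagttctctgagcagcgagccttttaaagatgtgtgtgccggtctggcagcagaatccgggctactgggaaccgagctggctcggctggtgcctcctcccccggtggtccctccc
Abcc9: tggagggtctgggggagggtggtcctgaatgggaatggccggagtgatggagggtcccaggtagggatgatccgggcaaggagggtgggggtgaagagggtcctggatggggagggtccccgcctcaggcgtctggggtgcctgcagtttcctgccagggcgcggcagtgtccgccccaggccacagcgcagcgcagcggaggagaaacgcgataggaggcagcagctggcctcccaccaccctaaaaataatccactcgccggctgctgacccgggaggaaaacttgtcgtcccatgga
The CArG box is the DNA element bound by serum response factor in smooth muscle genes. The Acta2 window holds 2 matches, at 84 to 75 and at 34 to 25 bases before the start, and the Kcnj8 and Abcc9 windows hold none. The strict CArG box, with only A or T in the 6 central bases, was found on either strand in 1.63% of all 32851 promoter windows and in none of the 23 windows of the 18 members that have one. The looser form was then searched, a choice made after seeing that result, and it was found in 9.98% of all windows and in windows of 3 members, Acta2, Egfl7 and Eng. Members without a window, among them the smooth muscle genes Myh11 and Tagln, were not searched for either form. Kcnj8 and Abcc9 are neighbours on chromosome 6 in the RefSeq annotation, with 0 protein-coding genes between them.

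None of the 30 endothelial and mural genes passed the test for a difference between TG and WT hearts. With edgeR's quasi-likelihood test and Benjamini-Hochberg adjustment over all 12670 genes, 0 of 30 members passed an adjusted p of 0.05, where 2 of all genes (0.0158%) did. Of these 2 genes, 1 was Carns1 itself (edgeR, Benjamini-Hochberg adjusted p = 1.07e-10). At an unadjusted p under 0.05 the edgeR test gave 0 of 30 members against 3.49% of all genes, and DESeq2 gave 0 of 30 against 2.72%. In CPM, the 4 TG values and the 4 WT values overlapped in every member, where 2.53% of all genes had groups that did not overlap (1.23% with TG higher, 1.29% with TG lower). The log2 fold change of TG against WT was above 0 in 12 members and below 0 in 18, with a median of -0.05 and a range from -0.37 (Cldn5) to 0.38 (Cnn1). The medians were -0.04 over the 20 endothelial genes and -0.05 over the 10 mural genes, beside -0.0017 over all genes tested. These are bulk libraries of heart tissue, so fewer cells of a type and less RNA per cell cannot be told apart.

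The intervals limit how large an undetected difference could be, as far as the scatter of these samples, which may be technical, measures it. The 95% interval of the fold change lay within 1.5-fold in either direction in 23 of 30 members (16 of 20 endothelial, 7 of 10 mural), where 67.7% of all genes met the same limit. It lay within 2-fold in all 30 members. On the log2 scale Acta2 had the widest interval, from 0.586-fold to 1.24-fold, and Pdgfrb the narrowest, from 0.826-fold to 1.12-fold. The interval of Cnn1 reached furthest from no change, running from 0.909-fold to 1.86-fold.

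**Figure D1:**
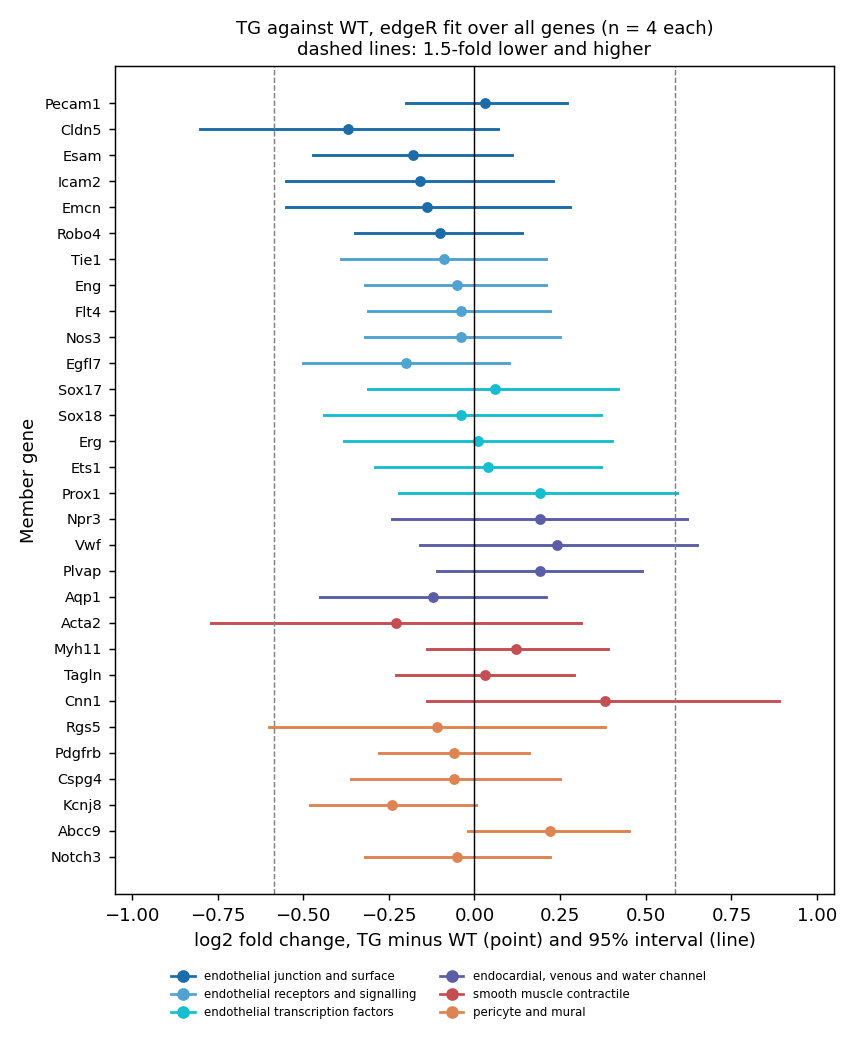
Log2 fold change of TG against WT (x axis) for each of the 30 members (y axis, coloured by role), as the edgeR estimate (point) with its 95% interval (line), n = 4 libraries a group; dashed lines mark 1.5-fold. Every interval crosses 0, and 23 of 30 stay between the dashed lines.

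Per kilobase of transcript, the order of the members ran from Aqp1 at a mean of 263 FPKM over the 8 libraries, through Eng (185), Acta2 (152), Pecam1 (97.7) and Rgs5 (94.5 FPKM), down to Cnn1 (4.82), Sox17 (4.48) and Npr3 (2.59 FPKM). The SD over libraries was 61.9 FPKM for Acta2, 28.6 FPKM for Rgs5 and 9.68 FPKM for Pecam1. Acta2 lay above Pecam1 in each library. Rgs5 lay above Pecam1 in some libraries and below it in others, so the rank of Rgs5 next to Pecam1 is not firm. Every member was detected in every library.

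Among the junction and surface genes, 1 of 6 was above 0 and 5 were below, with a median log2 fold change of -0.15. Pecam1 (Gene 18613), an adhesion molecule at the contacts between endothelial cells, measured 337, 296, 321 and 336 CPM in the TG libraries, against 269, 317, 317 and 357 CPM in the WT libraries. The TG range lies inside the WT range, and the log2 fold change was 0.03 (SE 0.11, edgeR, Benjamini-Hochberg adjusted p = 1.0). Cldn5 (Gene 12741), the claudin of endothelial tight junctions, measured 34.2, 20.3, 39.3 and 24.7 CPM in the TG libraries, against 29.9, 46.7, 36.1 and 40.8 CPM in the WT libraries. TG replicates 2 and 4 lay below every WT library and TG replicates 1 and 3 lay among them. The log2 fold change of Cldn5 was -0.37 (SE 0.20, edgeR unadjusted p = 0.0908, Benjamini-Hochberg adjusted p = 1.0). Taken by depth class, it was -0.06 among deeper and -0.77 among shallower libraries. The remaining members of the group were Esam, an adhesion molecule of endothelial cells and platelets (-0.18), the integrin ligand Icam2 (-0.16), the sialomucin endomucin, Emcn (-0.14), and the guidance receptor Robo4 (-0.10).

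All 5 receptors and signalling genes had a log2 fold change below 0, with a median of -0.05. Eng (Gene 13805), or endoglin, a co-receptor for ligands of the TGF-beta family, measured 725, 520, 672 and 608 CPM in the TG libraries, against 618, 710, 579 and 717 CPM in the WT libraries. TG replicate 2 was the lowest of the 8 and TG replicate 1 the highest. Egfl7 (Gene 353156), a protein secreted by endothelial cells whose gene also holds a microRNA, measured 101, 78.1, 125 and 85.7 CPM in the TG libraries, against 111, 116, 101 and 119 CPM in the WT libraries. TG replicates 2 and 4 were the lowest, while TG replicate 3 was the highest, and the log2 fold change was -0.20 (SE 0.14, edgeR unadjusted p = 0.178, Benjamini-Hochberg adjusted p = 1.0). Nos3, the endothelial nitric oxide synthase, had means of 85.9 ± 13.9 CPM over TG libraries and 88.1 ± 9.55 CPM over WT libraries (SD, n = 4 each), with a log2 fold change of -0.04. The values were -0.09 for Tie1, a receptor tyrosine kinase of the angiopoietin system, and -0.04 for Flt4, the VEGF receptor of lymphatic endothelium.

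Of the 5 transcription factors, 4 had log2 fold changes above 0 and 1 below, with a median of 0.04. Sox18 (Gene 20672), an SRY-box factor of endothelial and lymphatic development, measured 124, 91.2, 148 and 140 CPM in the TG libraries, against 95.1, 120, 126 and 176 CPM in the WT libraries. The highest and the next lowest library were both WT, and the log2 fold change was -0.04 (SE 0.19). Prox1 (Gene 19130), which sets lymphatic identity, measured 24.7, 34.3, 32.0 and 38.5 CPM in the TG libraries, against 39.0, 27.7, 24.1 and 22.3 CPM in the WT libraries. WT replicate 1 was the highest library, level with TG replicate 4, and the other 3 WT libraries were among the 4 lowest. The log2 fold change of Prox1 was 0.19 (SE 0.19, edgeR unadjusted p = 0.332, Benjamini-Hochberg adjusted p = 1.0), with -0.24 among deeper and 0.65 among shallower libraries. Sox17, a factor of arterial endothelium, and the ETS factors Erg and Ets1 had log2 fold changes of 0.06, 0.01 and 0.04.

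The group of endocardial, venous and water channel genes had a median log2 fold change of 0.19, with 3 of 4 above 0. Vwf (Gene 22371), the von Willebrand factor that tethers platelets, measured 267, 145, 237 and 236 CPM in the TG libraries, against 207, 217, 134 and 191 CPM in the WT libraries. TG replicates 1, 3 and 4 lay above every WT library, while TG replicate 2 lay below all but WT replicate 3. The log2 fold change of Vwf was 0.24 (SE 0.19, edgeR unadjusted p = 0.221, Benjamini-Hochberg adjusted p = 1.0). Plvap (Gene 84094), the protein of the diaphragms that span endothelial pores, measured 46.7, 35.9, 39.1 and 41.9 CPM in the TG libraries, against 41.7, 37.2, 29.0 and 35.3 CPM in the WT libraries, with a log2 fold change of 0.19 (SE 0.14, unadjusted p = 0.189, adjusted p = 1.0). Its highest library was TG replicate 1 and its lowest WT replicate 3. Aqp1 (Gene 11826), the water channel of capillary endothelium, measured 846, 625, 764 and 591 CPM in the TG libraries, against 890, 835, 766 and 573 CPM in the WT libraries. In Aqp1 the lowest libraries were TG replicates 2 and 4 and WT replicate 4, all of the shallower class, and the log2 fold change was -0.12 (SE 0.15). Npr3, the clearance receptor for natriuretic peptides and a marker of endocardium, had a log2 fold change of 0.19 (SE 0.20).

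**Figure D2:**
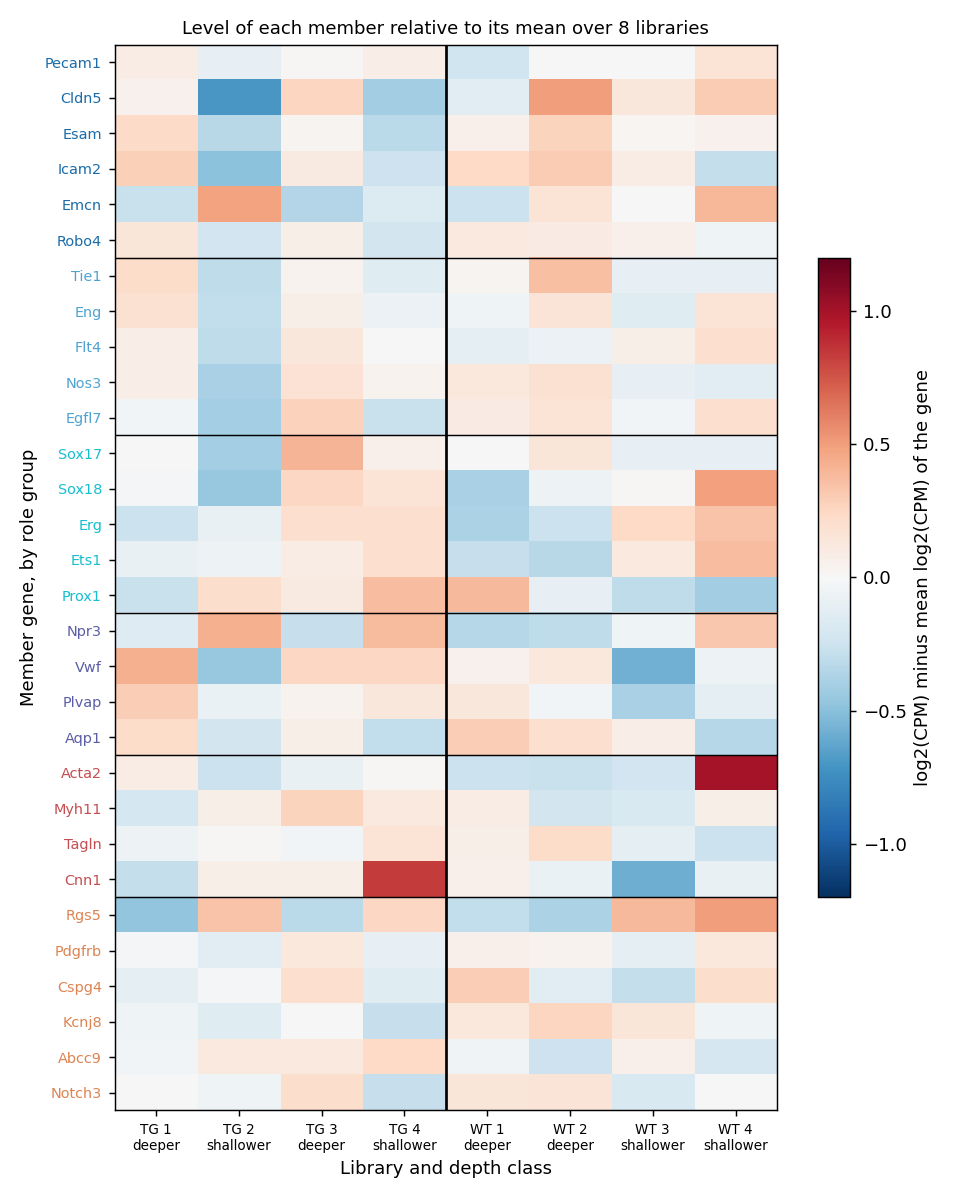
Level of each member (rows, grouped by role) in each library (columns, TG left and WT right of the thick line) as log2 CPM minus the gene's mean over the 8 libraries. No row splits at the thick line; the darkest cells are Acta2 in WT replicate 4 and Cnn1 in TG replicate 4, and the column of TG replicate 2 is mostly blue in the endothelial rows.

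TG replicate 2 gave the lowest value of 12 of the 30 members. The summed level of the 20 endothelial genes was 3364, 2546, 3212 and 2864 CPM in TG and 3092, 3316, 2913 and 3069 CPM in WT, so TG replicate 2 was the lowest and TG replicate 1 the highest. Not all endothelial genes were low there, since Emcn (74.1 CPM) and Npr3 (23.8 CPM) had their highest value in that library. Without TG replicate 2 the median log2 fold change of the endothelial genes moved from -0.04 to 0.05, with 0 of 20 passing the edgeR test either way. TG replicate 2 is the library with the high adipocyte and atrial markers, among them Adipoq at 68.4 CPM (0.273 to 3.12 CPM in the others), Ucp1 at 124 CPM (at most 0.391 CPM) and Myl7 at 203 CPM (1.35 to 46.8 CPM). Their part in the result was not tested.

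Of the 4 contractile genes of smooth muscle, 3 had log2 fold changes above 0, with a median of 0.08. Acta2 (Gene 11475), smooth muscle alpha-actin, measured 398, 314, 353 and 380 CPM in the TG libraries, against 314, 311, 320 and 750 CPM in the WT libraries. WT replicate 4 lay far above the other 7 libraries, and the other 3 WT libraries lay below TG replicates 1, 3 and 4. The log2 fold change was -0.23 (SE 0.25, edgeR, Benjamini-Hochberg adjusted p = 1.0), and without WT replicate 4 it turned to 0.20, still with 0 members called. The other contractile genes were not high in WT replicate 4: Myh11, the smooth muscle myosin heavy chain, stood there at 105 CPM (85.7 to 120 CPM over all libraries), Tagln, the actin-binding transgelin, at 75.2 CPM, its lowest value, and Cnn1 at 8.71 CPM. Acta1, skeletal alpha-actin, was highest in that library too, at 1401 CPM against 179 to 741 CPM in the other 7, while Actc1, cardiac alpha-actin, was not (16594 CPM, with 15841 to 18623 CPM over all). Acta1 and Actc1 were chosen after their values were seen. No source used here says how shared reads were divided between actin genes, so Acta2 is uncertain to that extent. In GENCODE transcripts, 0 of 1986 stretches of 50 bases of Acta2 occurred without a mismatch in Acta1, 0 in Actc1 and 0 in Actg2, another actin gene. That search does not cover stretches with mismatches, and the part of shared reads in the Acta2 values was not tested.

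Cnn1 (Gene 12797), calponin, which binds actin in contractile smooth muscle, measured 7.57, 9.68, 9.73 and 16.5 CPM in the TG libraries, against 9.66, 8.73, 6.17 and 8.71 CPM in the WT libraries. TG replicate 4 was the highest and the other 3 TG libraries lay among or just above the WT ones. Its log2 fold change of 0.38 (SE 0.24, edgeR unadjusted p = 0.137, Benjamini-Hochberg adjusted p = 1.0) was the highest of the list, with -0.09 among deeper and 0.82 among shallower libraries. The log2 fold changes of Myh11 and Tagln were 0.12 (SE 0.12) and 0.03 (SE 0.12).

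**Figure D3:**
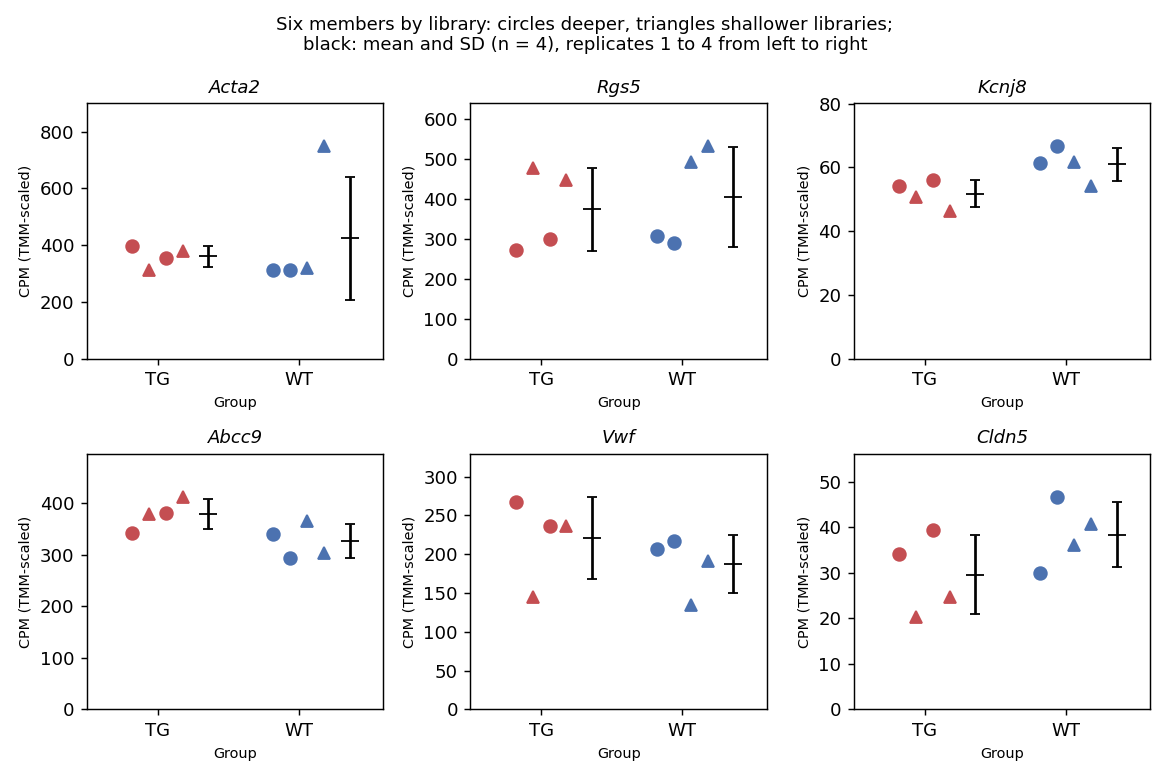
CPM (y axes, from 0) of 6 members in TG and WT; circles are deeper and triangles shallower libraries, in replicate order from left to right, with the mean and SD of each group (n = 4) in black. Acta2 is high in 1 WT library, Rgs5 splits by circles and triangles in both groups, and the Kcnj8 and Abcc9 groups overlap by a few libraries.

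Among the 6 pericyte and mural genes, 1 had a log2 fold change above 0 and 5 below, with a median of -0.06. The pair with the smallest unadjusted p-values of the list was Kcnj8 and Abcc9, which together form the ATP-sensitive potassium channel of pericytes and vascular smooth muscle: Kcnj8 encodes the pore Kir6.1 and Abcc9 the regulatory subunit SUR2. Opening of the channel relaxes the vessel wall.

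Kcnj8 (Gene 16523) measured 54.0, 50.6, 55.9 and 46.2 CPM in the TG libraries, against 61.2, 66.7, 61.8 and 54.0 CPM in the WT libraries. WT replicate 4 lay within the TG range and the other 3 WT libraries above it. The means were 51.7 ± 4.26 CPM over TG libraries and 60.9 ± 5.26 CPM over WT libraries (SD, n = 4 each), a log2 fold change of -0.24 (SE 0.11, 95% interval -0.48 to 0.0041, edgeR unadjusted p = 0.0535, Benjamini-Hochberg adjusted p = 1.0). On the FPKM scale, whose scaling is the authors' own, the values were 23.8, 23.2, 24.7 and 21.6 FPKM in TG and 27.8, 28.9, 28.5 and 25.6 FPKM in WT. There the groups did not overlap, in Kcnj8 as the 1 such member of 30, where 2.83% of all genes had FPKM groups that did not overlap. With limma on log2(FPKM + 1) the log2 fold change of Kcnj8 was -0.24 (Benjamini-Hochberg adjusted p = 1.0).

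Abcc9 (Gene 20928), given as the partner of Kcnj8 after its values were seen, measured 342, 379, 381 and 412 CPM in the TG libraries, against 340, 294, 366 and 304 CPM in the WT libraries. WT replicates 2 and 4 lay lowest, and WT replicates 1 and 3 lay near or within the TG range. The means were 378 ± 28.6 CPM over TG libraries and 326 ± 33.2 CPM over WT libraries (SD, n = 4 each), a log2 fold change of 0.22 (SE 0.11, 95% interval -0.02 to 0.45, edgeR unadjusted p = 0.0655, Benjamini-Hochberg adjusted p = 1.0). The 2 subunits thus had estimates of opposite sign, and neither passed the test. Both kept their sign within the deeper libraries (-0.22 for Kcnj8, 0.19 for Abcc9) and within the shallower ones (-0.26 and 0.24). Neither passed in a class alone (edgeR, Benjamini-Hochberg adjusted p = 0.589 and 0.638 among deeper, 0.906 for both among shallower). The pair was picked for small p-values over these same libraries, so the kept sign is not independent support.

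The FPKM of Kcnj8 as a percentage of that of Abcc9 in the same library was 54.2%, 45.6%, 50.2% and 38.5% in TG and 61.6%, 77.7%, 57.8% and 60.9% in WT. Every TG library lay below every WT library, which is a description of a pair chosen for its difference and carries no test. Abcc9 is also expressed in cardiomyocytes, where its partner is Kcnj11, so the percentage is not that of mural cells alone. Kcnj11, which encodes the pore Kir6.2, stood at 189 to 239 CPM in TG and at 188 to 250 CPM in WT, with a log2 fold change of -0.05 (SE 0.12), and Abcc8, the other regulatory subunit, at 35.5 to 63.8 CPM in TG and 31.6 to 53.3 CPM in WT, with 0.28 (SE 0.20; both edgeR, Benjamini-Hochberg adjusted p = 1.0). Both were chosen after the values of Kcnj8 and Abcc9 were seen.

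Rgs5 (Gene 19737), a regulator of G-protein signalling that marks pericytes, measured 271, 478, 300 and 447 CPM in the TG libraries, against 306, 289, 492 and 532 CPM in the WT libraries. The 4 shallower libraries lay at 447 to 532 CPM and the 4 deeper ones at 271 to 306 CPM, in both groups alike. The log2 fold change of TG against WT was -0.11 (SE 0.23, edgeR, Benjamini-Hochberg adjusted p = 1.0), with -0.06 among deeper and -0.14 among shallower libraries. Pdgfrb, the receptor for platelet-derived growth factor, varied least of all members, by 1.19-fold between its highest and lowest library, and had a log2 fold change of -0.06 (SE 0.10). The remaining values were -0.06 for the proteoglycan Cspg4, known as NG2, and -0.05 for the receptor Notch3, which maintains arterial smooth muscle.

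The depth class separated more members than the genotype did. Shallower against deeper libraries, 11 of 30 members passed edgeR's test with Benjamini-Hochberg adjustment, 3 higher and 8 lower, beside 32.2% of all genes (17.8% higher, 14.4% lower). The pooled share of members is near that of all genes. By direction, more members were lower than higher, the reverse of all genes. The members higher in shallower libraries were Rgs5 (log2 difference 0.74, SE 0.07, adjusted p = 1.12e-04), Npr3 (0.54, adjusted p = 0.00372) and Ets1 (0.32, adjusted p = 0.0399). The lower ones were Icam2 (-0.46), Aqp1 (-0.39), Vwf (-0.39), Tie1 (-0.33), Esam (-0.30), Nos3 (-0.27), Notch3 (-0.26) and Robo4 (-0.21), all endothelial but Notch3. Values of the depth classes did not overlap in 7 members, 2 higher and 5 lower, beside 29.9% of all genes. Of the 10 mural genes, 1 was called higher and 1 lower, with a median log2 difference of -0.03. Over the 20 endothelial members 2 were called higher and 7 lower, with a median of -0.22. Among 37 other endothelial genes, listed below, 12 were called higher and 6 lower, with a median of 0.04. The lower values are thus a trait of the 20 members and not of endothelial genes at large. Markers of other cells moved with the depth class as well. Of 10 fibroblast markers, 6 were called higher in the shallower libraries (median 0.31, with Dcn at 0.69 and Lum at 0.97), and of 10 ventricular cardiomyocyte markers 3 were called lower and 1 higher. Of 5 tested atrial markers 2 were called higher. Their part in the result was not tested. Extraction, RNA quality, tissue sampled and sequencing depth cannot be told apart in this split, which the labels do not mention.

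With the depth class as a covariate in the comparison of TG and WT, 0 of 30 members passed the adjusted threshold, where 0.221% of all genes did. That fit gave an unadjusted p under 0.05 in 4 members and in 8.97% of all genes. The members were Kcnj8 (log2 fold change -0.24, edgeR Benjamini-Hochberg adjusted p = 0.394), Abcc9 (0.21, adjusted p = 0.478), Cldn5 (-0.39, adjusted p = 0.518) and Esam (-0.19, adjusted p = 0.539). The median over the endothelial genes was 0.04 among deeper and -0.15 among shallower libraries, and over the mural genes -0.04 and -0.06.

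**Figure D4:**
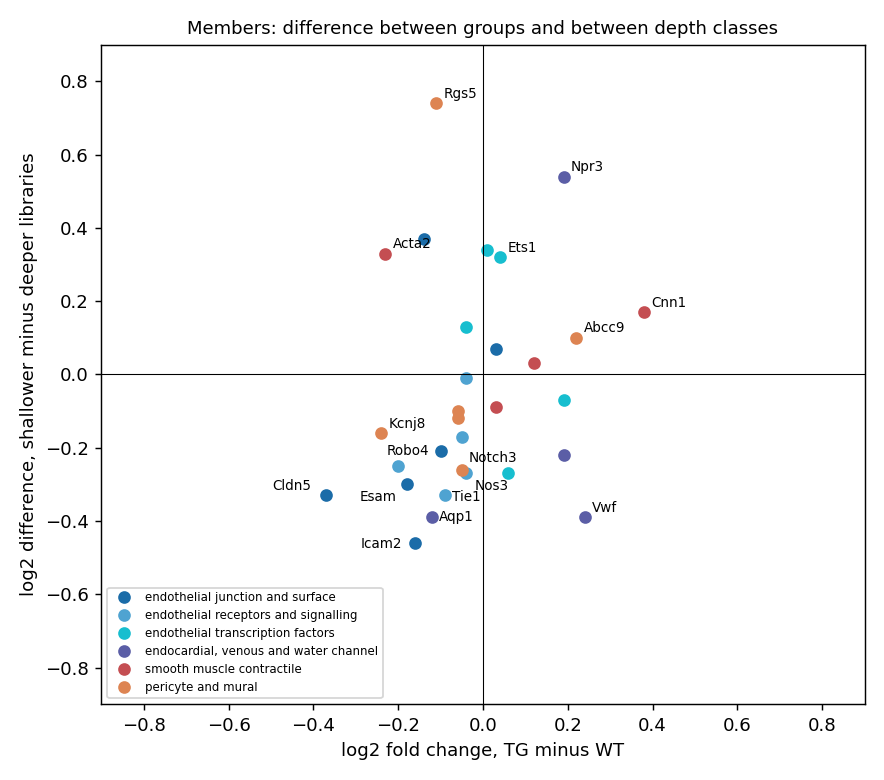
Log2 fold change of TG against WT (x axis) and log2 difference of shallower against deeper libraries (y axis) for the 30 members, coloured by role; named points passed the depth test or lie beyond 0.2 on the x axis. The points spread further along the y axis, up to 0.74 for Rgs5, than along the x axis, where they stay between -0.37 and 0.38.

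Of 151 further genes in 6 lists drawn up for the vessel wall, 143 were tested, and 0 passed the edgeR test with Benjamini-Hochberg adjustment. Of those tested, 53 had log2 fold changes above 0 and 90 below, with a median of -0.05. The lists are not unique to the vessel wall: Pln is also among the ventricular cardiomyocyte markers used here, and Pdgfra among the fibroblast markers. An unadjusted p under 0.05 was found in 4 of the 143 (2.80%), beside 3.49% of all genes. Among 37 other endothelial genes (0 called) the smallest unadjusted p-values belonged to the shear-responsive factors Klf4 (-0.31, SE 0.12) and Klf2 (-0.69, SE 0.37) on the lower side and to the angiopoietin receptor Tek (0.14) and to thrombomodulin, Thbd (0.09), on the higher side. Klf2 measured 132 ± 57.2 CPM over TG libraries and 213 ± 113 CPM over WT libraries (SD, n = 4 each). It was lower in shallower than in deeper libraries (log2 difference -1.10, edgeR, Benjamini-Hochberg adjusted p = 0.00206). Within the deeper libraries alone, 2 a group, its log2 fold change of TG against WT was -0.85 and passed (adjusted p = 0.0405, where 0.463% of all genes passed), and within the shallower ones it was -0.35 (adjusted p = 0.942). Among 18 tested arterial, venous, lymphatic and endocardial genes (0 called), they were Nr2f2, the factor of venous identity (0.35, SE 0.17), Cytl1 (0.47, SE 0.25), the arterial Notch ligand Dll4 (-0.17) and Sema3g (-0.15). Cytl1 was highest in TG replicate 4, at 55.7 CPM against 18.6 to 28.0 CPM in WT. Its log2 fold change was -0.07 among deeper and 0.99 among shallower libraries.

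Among 21 other smooth muscle genes (0 called), Tpm2, the beta-tropomyosin, had the smallest unadjusted p (58.9 ± 3.42 CPM in TG, 46.3 ± 5.05 CPM in WT, SD, n = 4 each; log2 fold change 0.35, SE 0.11, edgeR unadjusted p = 0.00969, Benjamini-Hochberg adjusted p = 1.0), and its groups did not overlap, as in 1.23% of all genes with TG higher. The next were the SRF co-activator Mrtfb (0.28), smoothelin, Smtn (-0.22), and Synpo2 (-0.12). Among 20 other pericyte genes (0 called; 3 above 0, 17 below) they were Heyl, a Notch target (66.2 ± 4.52 against 83.9 ± 10.9 CPM, SD, n = 4 each; -0.34, SE 0.12, edgeR unadjusted p = 0.011, Benjamini-Hochberg adjusted p = 1.0), the angiopoietin Angpt1 (-0.43), Anpep (0.25) and Steap4 (0.15). Among 39 tested ligands and receptors (0 called) they were Pdgfd (-0.58, SE 0.27), the BMP target Id1 (-0.34), Slit3 (0.32) and Vegfd (0.47). Among 15 tested genes of nitric oxide and cGMP signalling (0 called) they were Hsp90aa1 (0.48, SE 0.29), Gucy1a2 (0.24), Gch1 (-0.29) and Nos2 (-0.22). Hsp90aa1 was higher in shallower than in deeper libraries (log2 difference 0.84, edgeR, Benjamini-Hochberg adjusted p = 0.00353). Its log2 fold change of TG against WT was -0.07 among deeper and 0.8 among shallower libraries.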

How the data were processed

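Hearts of TG and WT mice (4 libraries a group, named by title) were profiled by polyA RNA sequencing, per the labels' protocols. The deposited tables hold, per the file headers, an expected count and an FPKM value for each NCBI Gene number; the authors' FPKM values are scaled by gene length and library size, and the deposited expected counts are not normalized (79.0% to 79.8% were whole numbers as written). The submitters' processing notes name Bowtie2 and mm8; the counting program and use of strand are not given in the sources used here, so overlapping and antisense genes cannot be told apart. Of 18215 gene numbers, 18174 were matched to symbols by number in the RefSeq table of GRCm38.p6, used for names and neighbours; promoter sequences are RefSeq's on that build, matched by gene number. A gene that a library's table does not list was taken as 0.

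Expected counts were rounded, filtered with filterByExpr (minimum count 10, minimum total 15) and tested with edgeR 4.0.16 (R 4.3.3), quasi-likelihood F-test (two-sided), with TMM scaling, group as the only term, and Benjamini-Hochberg adjustment over 12670 genes and a threshold of 0.05. CPM values use TMM-scaled library sizes. A count of 3 corresponds to 0.380 to 0.479 CPM, counting error only. DESeq2 1.42.0 and limma 3.58.1 on log2(FPKM + 1) and log2(FPKM + 0.1) were alternatives, with other scalings and filters, the replicate number as a block, the depth class (totals split at their largest gap), each class alone, Carns1 left out, and each library left out.

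On simulated counts of 12538 genes (200 changed, 5 runs, TG against WT) 33.6% of 1.5-fold changes were called, 78.6% at 2-fold and 97.6% at 4-fold, and 51 of 772 calls were false. The simulation planted 200 changed genes a run, where 2 genes were called in the data. It drew genes independently and held no depth class. With fewer changed genes the adjusted threshold is harder to pass, so these rates may overstate what could be recovered here. Library pairs within a group differed by a chi-square of at least 4.29 per degree of freedom, so none agreed within sampling noise. The members and lists were chosen with earlier results of these data known. Values in every library are given, in each role group, for the member with the smallest unadjusted p, the most abundant by FPKM and the one with the largest ratio of highest to lowest library; of the related lists, the genes with the smallest unadjusted p in each direction (up to 2) are named.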

Additional observations from a re-analysis of the deposited data

Results flagged for a closer look

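Acta2 in WT replicate 4 stood at 750 CPM, far from the other 3 WT libraries at 311 to 320 CPM; the gap to the nearest of them took 0.979 of the range of the group, above Dixon's 95% critical value for 4 samples. Of 60 groups tested over the 30 members, this was the 1 that passed, and chance gives about 1 in 20.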

How the results depend on the processing

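Under 20 other settings, 0 of 30 members passed the threshold in any, and 41 of 600 member values changed sign, in 18 members. The other 12 members, Kcnj8 (-0.29 to -0.19), Abcc9 (0.17 to 0.28) and Cldn5 (-0.77 to -0.06) among them, kept their sign throughout. All settings reuse the same libraries, so a kept sign is not independent support. The count over all genes, 2, was 15 with DESeq2, 4 with no filter, 1 with limma at either pseudocount, 1 with the replicate number as a block, 28 with the depth class as a covariate, 59 in the deeper libraries alone, 4 in the shallower alone, 0 with Carns1 left out (441 at an unadjusted p under 0.05), and 1 to 3 without any one library. Within the deeper libraries the log2 fold change turned to 0.0046 for Robo4, 0.07 for Eng, 0.19 for Flt4, 0.34 for Sox18, -0.24 for Prox1, 0.26 for Acta2, -0.20 for Tagln, -0.09 for Cnn1 and 0.0017 for Pdgfrb; within the shallower ones to -0.09 for Pecam1, -0.04 for Sox17, -0.23 for Erg and -0.17 for Ets1, and the endothelial median was -0.15. With upper quartile scaling Erg was at -0.00028. Leaving out 1 library in turn, the log2 fold change ranged from -0.36 to 0.20 for Acta2, -0.15 to 0.04 for Cspg4, -0.13 to 0.03 for Eng, -0.10 to 0.14 for Erg, -0.05 to 0.19 for Ets1, -0.09 to 0.05 for Flt4, -0.10 to 0.07 for Nos3, -0.13 to 0.03 for Notch3, -0.03 to 0.10 for Pecam1, -0.25 to 0.05 for Rgs5, -0.09 to 0.18 for Sox17, -0.16 to 0.15 for Sox18, -0.04 to 0.12 for Tagln and -0.19 to 0.02 for Tie1, and the median over all members from -0.09 to 0.03. Same-numbered TG and WT libraries correlated in their deviations from the group means at 0.24, -0.28, -0.18 and 0.40. The sign followed the depth class, positive for pairs of the same class and negative for the others. These values therefore cannot tell whether the numbers pair the samples. With the replicate number as a block 0 members and 1 of all genes passed. Each depth class leaves 2 libraries a group; for the other settings the cause was not tested.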
